A study of Homo sapiens with 6 samples.

Results

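Calcium pumps and sodium-calcium exchangers were followed in HSC-3, an established line of human oral squamous carcinoma cells. The 8 genes were taken by symbol from a deposited table of read counts for 22941 genes: ATP2A2 and ATP2A3, ATP2B1 and ATP2B4, ATP2C1 and ATP2C2, SLC8A1 and SLC8B1. Cells of both groups were kept in DMEM with fetal bovine serum and antibiotics. The normal gravity group and the simulated microgravity group, kept in a Rotary Cell Culture System (a vessel that turns so that cells stay in free fall), each had 3 libraries that the titles call biological replicates. Columns of the table are headed NC and SMG, and NC was taken as normal gravity by elimination, since SMG is the name the treatment protocol gives the rotary culture. Time in culture is not given, the design has no static suspension group among the samples used here, and a single cell line was studied. The comparison asks how transcripts that handle calcium, an ion that the series title names, differ between these groups. Effects of gravity cannot be told apart from other effects of the rotary culture.

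A resting cell keeps calcium in its cytosol far below the level outside it and inside its stores, and ATP-driven pumps and ion-driven exchangers hold that gradient. SERCA pumps load the endoplasmic reticulum, PMCA pumps expel calcium across the plasma membrane, and SPCA pumps load the Golgi with calcium and manganese. Sodium-calcium exchangers of the plasma membrane use the sodium gradient to move calcium, and NCLX, encoded by SLC8B1, carries calcium out of mitochondria. In human epidermis, loss of one copy of ATP2A2 causes Darier disease and loss of one copy of ATP2C1 causes Hailey-Hailey disease, both disorders of keratinocyte adhesion.

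The exchangers moved in opposite directions in simulated microgravity, and among the 6 pumps 1 gene passed the test. Transcripts of the plasma membrane exchanger SLC8A1 fell 13.2-fold, those of the mitochondrial exchanger SLC8B1 rose 3.10-fold, and those of the plasma membrane pump ATP2B1 rose 1.33-fold. The other 5 members did not pass the test. All 8 passed the filter on low counts, and edgeR's quasi-likelihood test called 3 of 8 (37.5%) at an adjusted p below 0.05, 2 of them higher and 1 lower, beside 57.6% of the 14736 genes tested (28.2% higher and 29.3% lower). The groups did not overlap for 5 of 8 members (62.5%), beside 66.3% of all genes tested. The median absolute log2 fold change was 0.34 among the members and 0.65 among all genes tested. Neither share lay above that of all genes tested.

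Promoter windows of the 3 members that passed the test, 250 bases before to 50 bases after an annotated start, are shown because their gene-level counts pool all starts of a gene. Sequences are from RefSeq, build GRCh38.p14, where 6 of 8 members matched. SLC8B1 has 1 start in that table, and ATP2B1 and SLC8A1 have more than 1. For ATP2B1 the most upstream is shown and for SLC8A1 all. Capitals mark matches to the motifs named after them.

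SLC8B1, chr12:113335060-113335359, minus strand: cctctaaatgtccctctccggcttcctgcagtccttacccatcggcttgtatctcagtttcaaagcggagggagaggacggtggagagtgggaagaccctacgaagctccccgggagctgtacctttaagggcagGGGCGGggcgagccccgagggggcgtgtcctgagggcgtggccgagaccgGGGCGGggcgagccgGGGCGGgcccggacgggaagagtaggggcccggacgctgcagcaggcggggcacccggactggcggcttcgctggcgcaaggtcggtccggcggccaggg
ATP2B1, chr12:89709317-89709616, minus strand: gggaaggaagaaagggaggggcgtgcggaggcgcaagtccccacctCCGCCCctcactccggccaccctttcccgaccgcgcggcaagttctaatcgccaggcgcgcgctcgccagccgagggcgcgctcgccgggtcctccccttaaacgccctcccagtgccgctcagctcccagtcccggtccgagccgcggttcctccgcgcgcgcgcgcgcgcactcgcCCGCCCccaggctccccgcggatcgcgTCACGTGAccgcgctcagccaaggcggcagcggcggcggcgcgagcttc
SLC8A1 first start, chr2:40512386-40512685, minus strand: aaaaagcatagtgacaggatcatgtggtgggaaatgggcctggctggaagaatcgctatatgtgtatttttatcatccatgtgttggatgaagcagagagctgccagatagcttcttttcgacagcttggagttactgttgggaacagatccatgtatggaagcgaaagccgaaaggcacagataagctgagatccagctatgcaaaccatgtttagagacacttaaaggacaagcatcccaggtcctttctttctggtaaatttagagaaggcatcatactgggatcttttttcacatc
SLC8A1 second start, chr2:40452041-40452340, minus strand: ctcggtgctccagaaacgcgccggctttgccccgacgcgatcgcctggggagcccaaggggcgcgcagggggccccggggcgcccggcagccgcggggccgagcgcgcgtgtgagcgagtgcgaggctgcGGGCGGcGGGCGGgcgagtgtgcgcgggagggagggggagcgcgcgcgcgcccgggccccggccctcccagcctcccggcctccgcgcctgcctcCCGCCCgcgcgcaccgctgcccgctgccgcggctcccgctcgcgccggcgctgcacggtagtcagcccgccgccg
SLC8A1 last start, chr2:40430255-40430554, minus strand: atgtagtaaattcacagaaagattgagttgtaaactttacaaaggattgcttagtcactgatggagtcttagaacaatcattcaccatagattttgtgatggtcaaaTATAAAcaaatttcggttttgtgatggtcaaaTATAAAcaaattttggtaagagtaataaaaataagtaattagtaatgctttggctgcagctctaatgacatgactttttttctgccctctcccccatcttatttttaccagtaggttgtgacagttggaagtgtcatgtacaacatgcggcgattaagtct

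Each motif was searched on both strands. They were the CCAAT box (CCAAT), the GC box (GGGCGG), the TATA box (TATAAA), the AP-1 site (TGANTCA), the cyclic AMP element (TGACGTCA), the E-box core of lysosomal CLEAR elements (TCACGTG) and the endoplasmic reticulum stress element ERSE, in which a CCAAT box is followed at a fixed distance by CCACG. Of all 35116 promoter windows of the same length, 44.95% held a GC box, 34.6% a CCAAT box, 11.5% a TATA box, 7.71% an AP-1 site, 3.71% a CLEAR core, 1.85% a cyclic AMP element and 0.0769% an ERSE, which also counts as a CCAAT box. The SLC8B1 window held 3 GC boxes and no other motif. The ATP2B1 window shown held 2 GC boxes and, just past the start, 1 palindrome that matched the CLEAR core in both orientations. The other ATP2B1 window, which is not shown, held 4 GC boxes and no CLEAR core. SLC8A1 starts differed from each other: the first (43.3% G or C) held none of the motifs, the second (83.3%) held 3 GC boxes and the one nearest to the gene's end (34%) held the TATA box at 2 places. The counts do not say which start was used, and a match is a description of letters.

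SLC8A1 encodes NCX1, which exchanges sodium for calcium at the plasma membrane and is best known from heart muscle, kidney and brain (chromosome 2, 40097270 to 40512435). Read counts of replicates 1, 2 and 3 were 325, 408 and 158 in normal gravity against 23, 14 and 26 in simulated microgravity. Scaled by library size to CPM, that is 8.50, 10.9 and 4.20 against 0.661, 0.397 and 0.715. Values of single libraries are given in the order of replicates 1, 2 and 3 throughout. Every simulated microgravity library lay below every normal gravity library, and the values of normal gravity spread more than 2-fold. The log2 fold change, simulated microgravity minus normal gravity, was -3.72 (SE 0.43, 95% interval -4.71 to -2.74, adjusted p = 1.69e-04, edgeR), lower than in all but 1.68% of genes tested. Leaving out any 1 library gave -4.03 to -3.42, with the call kept in each case. In bulk RNA, fewer cells that carry a transcript and less of it per cell cannot be told apart.

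Within normal gravity the SLC8A1 level and the summed level of 10 proliferation markers were both highest in replicate 2 and lowest in replicate 3. That sum was 1986, 2505 and 1012 CPM in normal gravity replicates 1, 2 and 3, and 124 to 156 CPM in simulated microgravity, where all 10 markers fell. The summed level of 17 keratinocyte differentiation markers was 262 to 478 CPM in normal gravity and 5903 to 8424 CPM in simulated microgravity. Of 15 tested, 12 were called higher and none lower, beside 28.2% and 29.3% of all genes tested. The 3 not called were KRT1 (5.79 ± 9.26 to 0.291 ± 0.201 CPM, SD, n = 3), KRT10 (29.8 ± 6.01 to 27.3 ± 2.21 CPM) and DSG1 (0.230 ± 0.177 to 0.519 ± 0.299 CPM). Most KRT1 reads of normal gravity were in replicate 3. CDSN, KLK5 and SPRR1B gave most of the simulated microgravity sum (means of 2908, 2225 and 1457 CPM). The part of either change of cell state in the results for the pumps and exchangers was not tested.

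SLC8B1 encodes NCLX, the exchanger of the inner mitochondrial membrane that returns matrix calcium to the cytosol in exchange for sodium (chromosome 12, 113298771 to 113335109). Its levels were 20.7, 20.5 and 19.1 CPM in normal gravity and 62.4, 52.6 and 72.1 CPM in simulated microgravity. The lowest simulated microgravity library was thus far above the tightly grouped normal gravity libraries. The log2 fold change was 1.63 (SE 0.14, 95% interval 1.32 to 1.94, adjusted p = 3.49e-05, edgeR), above that of 90.3% of genes tested. Leaving out any 1 library gave 1.52 to 1.74.

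TPCN1, a calcium-permeable two-pore channel of endosomes and lysosomes, lies next to SLC8B1 on the opposite strand, and the 3′ ends of the genes are 185 bases apart. It rose from 68.5 ± 1.77 to 166.7 ± 11.7 CPM (SD, n = 3; log2 fold change 1.28, SE 0.10, adjusted p = 2.29e-05, edgeR). The sources used here give no strand setting of the counting, so reads that run past either 3′ end cannot be assigned with certainty. PLBD2, on the far side of SLC8B1 at a distance of 23477 bases, fell from 77.2 ± 4.75 to 45.4 ± 5.37 CPM (SD, n = 3); it was named after its values were seen.

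**Figure D1:**
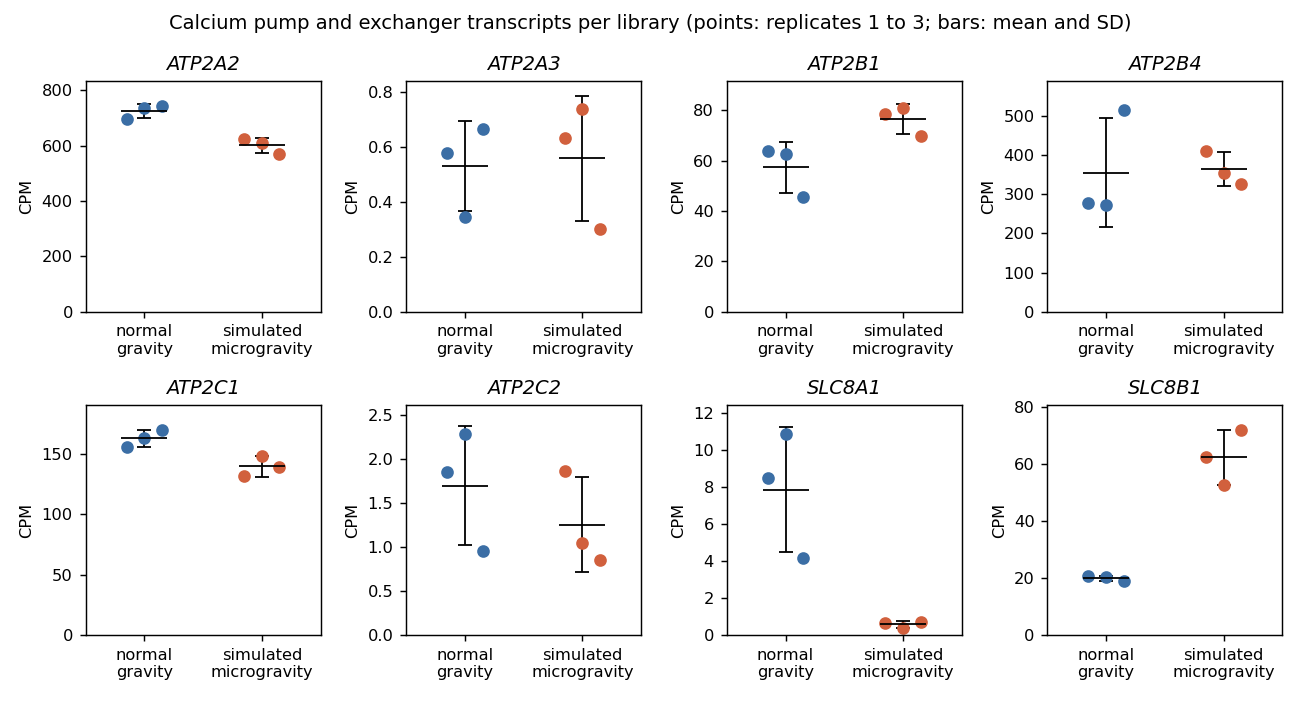
Transcript level in CPM (y axis, from 0) of the 8 genes in each library, with normal gravity on the left and simulated microgravity on the right of each panel; points are replicates 1 to 3 from left to right, and bars are the mean and SD. SLC8B1 and SLC8A1 separate by group in opposite directions, and in ATP2B4 normal gravity replicate 3 (516 CPM) stands above the other libraries.

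ATP2B1 encodes PMCA1, the plasma membrane pump found in nearly all cell types (chromosome 12, 89588049 to 89709366). It was at 63.7, 62.7 and 45.6 CPM in normal gravity and at 78.6, 81.1 and 69.8 CPM in simulated microgravity. The groups did not overlap, and the gap between the nearest libraries was small. The log2 fold change was 0.42 (SE 0.14, 95% interval 0.09 to 0.75, adjusted p = 0.0352, edgeR). The call was lost without simulated microgravity replicate 1 (adjusted p = 0.103) or replicate 2 (adjusted p = 0.108), with log2 fold changes of 0.40 and 0.37 (edgeR).

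ATP2B4 encodes PMCA4, a plasma membrane pump known from red blood cells and sperm (chromosome 1, 203626832 to 203744081). Its levels were 278, 272 and 516 CPM in normal gravity and 410, 355 and 325 CPM in simulated microgravity. Normal gravity replicate 3 was 1.88 times the mean of replicates 1 and 2, and the simulated microgravity libraries lay between. The log2 fold change was 0.03 (95% interval -0.54 to 0.61, adjusted p = 0.92, edgeR), an interval from 0.686 to 1.52 as a ratio. A single library decides this value: without normal gravity replicate 3 it was 0.40 (adjusted p = 0.0117, edgeR), and without normal gravity replicate 1, normal gravity replicate 2 or simulated microgravity replicate 1 its sign turned, to -0.13, -0.13 and -0.06. Normal gravity replicate 3 also had the lowest proliferation marker sum and the highest differentiation marker sum of its group (1012 and 478 CPM). Simulated microgravity libraries had still lower proliferation sums (124 to 156 CPM) and higher differentiation sums (5903 to 8424 CPM). Their ATP2B4 levels were below that of normal gravity replicate 3. Any relation of ATP2B4 to these markers was not tested.

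ATP2A2 encodes SERCA2, the housekeeping pump of the endoplasmic reticulum, and had the most transcript of the family (chromosome 12, 110280616 to 110351093). Levels of 696, 736 and 743 CPM in normal gravity stood against 624, 609 and 570 CPM in simulated microgravity. Each simulated microgravity library was below each normal gravity library, by a small step. The log2 fold change of -0.27 (SE 0.11, 95% interval -0.52 to -0.02) did not pass the test (adjusted p = 0.0601, edgeR). It passed with the DESeq2 Wald test (adjusted p = 0.0319) and with limma-voom (adjusted p = 0.0421), at -0.25 and -0.27. Splice forms such as the muscle and general forms of SERCA2 are pooled in these counts.

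ATP2C1 encodes SPCA1, the pump that supplies the Golgi (chromosome 3, 130850595 to 131016712). It was at 156, 163 and 169.6 CPM in normal gravity and at 132, 148 and 139 CPM in simulated microgravity. Here too the groups did not overlap. The log2 fold change was -0.22 (SE 0.10, 95% interval -0.44 to -0.0021, adjusted p = 0.078, edgeR), and the adjusted p was 0.0664 to 0.246 over all 13 alternatives. ASTE1, a gene whose annotation overlaps that of ATP2C1, was at 6.12 ± 1.39 and 6.83 ± 0.19 CPM (SD, n = 3; adjusted p = 0.572, edgeR).

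ATP2A3 and ATP2C2 had few reads. ATP2A3, the SERCA3 pump of blood cells and some epithelia (chromosome 17, 3923873 to 3964437), had 22, 13 and 25 counts in normal gravity and 22, 26 and 11 in simulated microgravity. ATP2C2, the SPCA2 pump of secretory epithelia such as the mammary gland (chromosome 16, 84368538 to 84464187), had 71, 86 and 36 counts against 65, 37 and 31. Both pairs of groups overlapped. The intervals were wide, with log2 fold changes of 0.07 (95% interval -1.10 to 1.24, adjusted p = 0.913, edgeR) for ATP2A3 and -0.44 (95% interval -1.48 to 0.61, adjusted p = 0.438, edgeR) for ATP2C2. The interval of ATP2A3 includes 2-fold changes in either direction. Counting error of the summed reads alone gives an SE of 0.26 for ATP2A3 and 0.16 for ATP2C2 on the log2 scale, beside fitted SEs of 0.51 and 0.46. ATP2C2-AS1, a non-coding gene annotated over ATP2C2, had 139, 119 and 96 counts in normal gravity and 345, 365 and 370 in simulated microgravity (log2 fold change 1.70, SE 0.21, adjusted p = 2.25e-04, edgeR). Without a known strand setting, reads of ATP2C2 and of its antisense partner cannot be told apart.

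**Figure D2:**
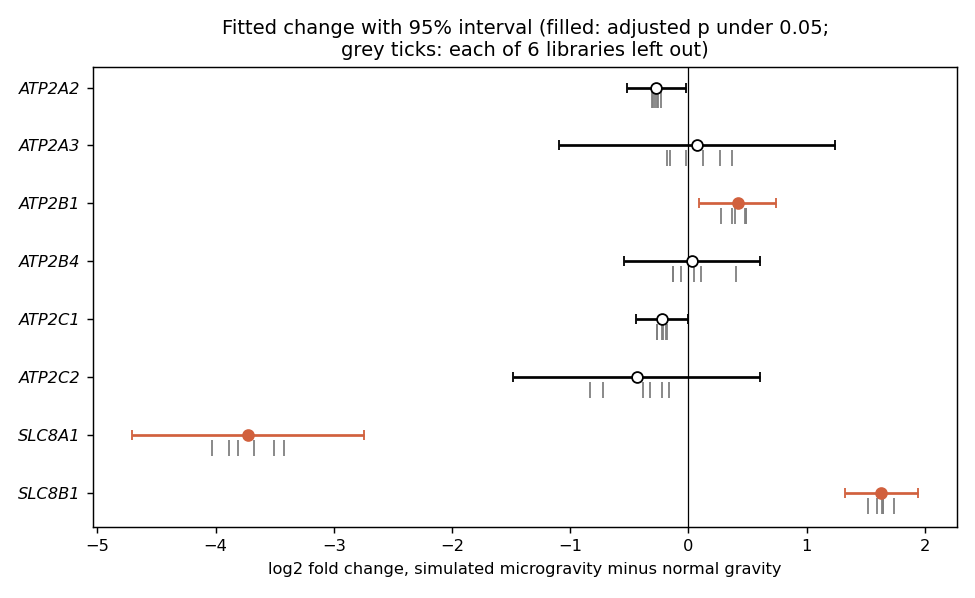
Fitted log2 fold change (x axis, simulated microgravity minus normal gravity) of each gene, with the 95% interval; filled points have an adjusted p under 0.05, and grey ticks are the values with each of the 6 libraries left out. ATP2B4 and ATP2A3 have ticks on both sides of 0, while those of SLC8A1 (-4.03 to -3.42) and SLC8B1 (1.52 to 1.74) stay far from it.

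Levels of different genes were compared as CPM per kilobase of all annotated exons. In normal gravity the order was ATP2A2 (52.7 ± 1.85, SD, n = 3, as are the values that follow), ATP2B4 (36.6 ± 14.3), ATP2C1 (19.1 ± 0.82), ATP2B1 (6.04 ± 1.07), SLC8B1 (2.97 ± 0.13), SLC8A1 (0.358 ± 0.154), ATP2C2 (0.231 ± 0.092) and ATP2A3 (0.0767 ± 0.0238). ATP2A2 overlapped ATP2B4, and SLC8A1 overlapped ATP2C2, while the other neighbours in the order did not overlap. In simulated microgravity SLC8B1, at 9.22 ± 1.44 CPM per kilobase, came next to ATP2B1 at 8.06 ± 0.63, which it overlapped, and SLC8A1 was last at 0.0269 ± 0.0078. SLC8A1 provided 11.3%, 14.0% and 6.35% of the summed CPM per kilobase of both exchangers in normal gravity and 0.326%, 0.232% and 0.305% in simulated microgravity.

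The summed level of the 6 pumps overlapped between groups, while the sums of the reticulum and of the Golgi pumps did not. Over all 6 it was 104.55, 107.6 and 132 CPM per kilobase in normal gravity and 111.7, 107.04 and 98.7 in simulated microgravity (exact two-sided permutation test, p = 0.5). SERCA pumps, nearly all ATP2A2, summed to 52.8 ± 1.85 CPM per kilobase in normal gravity and 43.8 ± 2.09 in simulated microgravity (SD, n = 3), and SPCA pumps, nearly all ATP2C1, to 19.3 ± 0.77 and 16.5 ± 0.93, each without overlap (exact permutation p = 0.1, unadjusted, the smallest that 3 against 3 libraries can give). PMCA pumps summed to 42.6 ± 13.2 and 45.5 ± 4.85 (exact permutation p = 0.8). A test that cannot go below 0.1 does not show that sums were alike. ATP2A2 made up 48.4%, 49.8% and 40.9% of that sum in normal gravity and 40.7%, 41.4% and 42.0% in simulated microgravity (exact permutation p = 0.3). ATP2B1 made up 6.41%, 6.14% and 3.64% against 7.41%, 7.98% and 7.45%, groups that did not overlap (exact permutation p = 0.1, unadjusted).

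**Figure D3:**
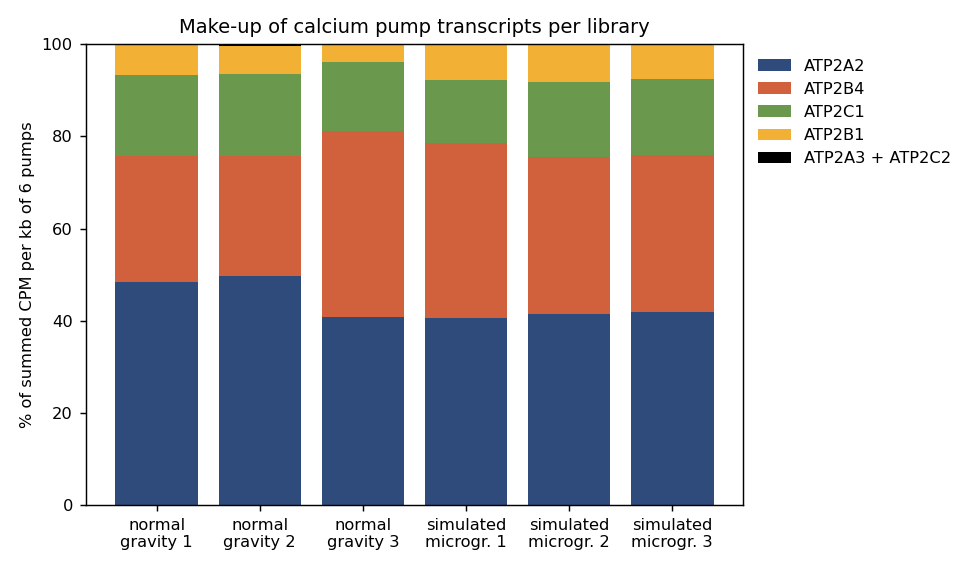
Share of each gene in the summed CPM per kilobase of the 6 pump genes (y axis, percent) in each library. ATP2A2 and ATP2B4 make up most of every bar, and normal gravity replicate 3 has more ATP2B4 (40.2%) than the other normal gravity libraries (27.4% and 25.98%).

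Ratios of members within a library do not depend on how libraries are scaled, and pairs were compared by an exact two-sided permutation test, in which 3 against 3 libraries cannot go below p = 0.1. P-values were adjusted over 6 pairs, of which 5 are given. SLC8B1 had 2.75 times the counts of SLC8A1 in normal gravity and 105 times in simulated microgravity, a difference of 5.26 in the log2 ratio (exact p = 0.1, adjusted p = 0.3). That ratio was 1.28, 0.92 and 2.18 in normal gravity and 6.53, 7.002 and 6.63 in simulated microgravity, and these groups lie far apart. The log2 ratio of ATP2B1 to ATP2A2 was -3.45, -3.55 and -4.03 in normal gravity and -2.99, -2.91 and -3.03 in simulated microgravity (exact p = 0.1, adjusted p = 0.3), without overlap. Of the summed CPM per kilobase of ATP2B1 and ATP2B4, ATP2B1 made up a mean of 15.5% in normal gravity and 17.8% in simulated microgravity. A ratio of ATP2B4 to ATP2A2 was not taken. ATP2C1 to ATP2A2 shifted by 0.05 (exact p = 0.4, adjusted p = 0.75), less than the spread of 0.12 (SD, n = 3) among simulated microgravity libraries. The isoform pairs ATP2A2 to ATP2A3 and ATP2B1 to ATP2B4 shifted by -0.30 and 0.34, and their groups overlapped (exact p = 0.5 and 1.0; adjusted p = 0.75 and 1.0).

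**Figure D4:**
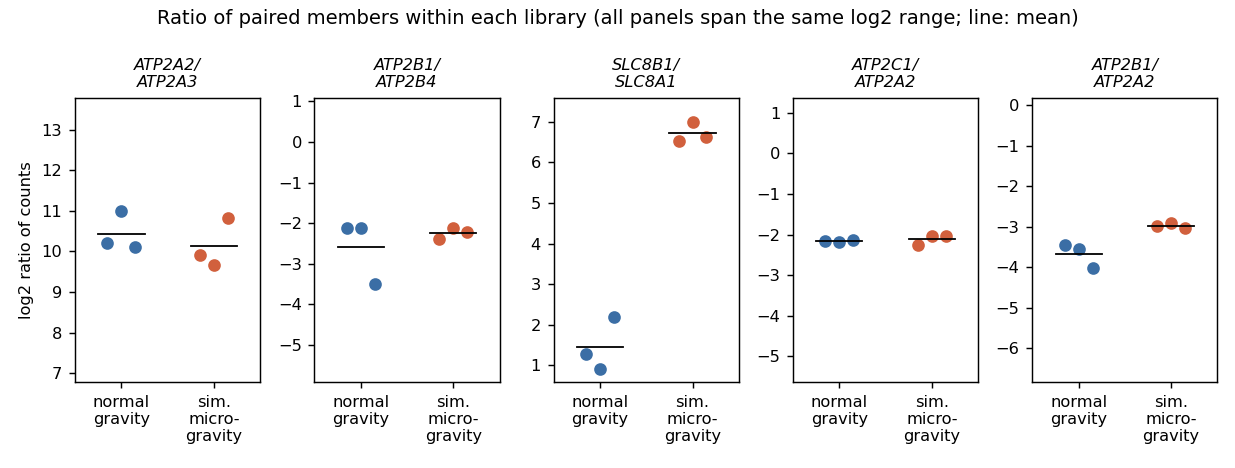
Log2 ratio of the counts of paired genes (y axis) in each library, normal gravity on the left and simulated microgravity on the right; the line is the mean, and each panel spans the same number of log2 units. Only the panels of SLC8B1 to SLC8A1 and ATP2B1 to ATP2A2 have groups that do not overlap among the 5 pairs shown.

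Among relatives of these genes, only SLC24A1 passed the filter on low counts. Its mean CPM, not scaled by gene length, was above those of SLC8A1, ATP2C2 and ATP2A3 in both groups. For SLC8A1 the means were 7.85 (normal gravity) and 0.591 (simulated microgravity). SLC24A1, a sodium-calcium-potassium exchanger known from rod photoreceptors, fell from 14.3 ± 1.02 to 9.41 ± 1.75 CPM (SD, n = 3; log2 fold change -0.60, SE 0.18, adjusted p = 0.0199, edgeR), a call lost without normal gravity replicate 1 (adjusted p = 0.0717, edgeR), simulated microgravity replicate 1 (0.0711) or simulated microgravity replicate 3 (0.0705). The other 8 relatives found in the table did not pass the filter on low counts. SLC8A2, a neuronal sodium-calcium exchanger, had 0 counts in each normal gravity library and 15, 3 and 11 in simulated microgravity, at least 10.3-fold higher if the normal gravity group is set to a floor of 3 counts in all. SLC24A4 had 29, 9 and 19 counts against 0, 6 and 1. ATP2A1, the SERCA1 pump of fast muscle, had 36 counts over the normal gravity group and 20 over the other, and ATP2B2, ATP2B3 and SLC8A3 were at or under the floor in both groups.

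Among subunits and regulators of the pumps, 17 were tested: 4 rose (23.5%) and 7 fell (41.2%), and the other 6 did not pass. Of all genes tested, 28.2% were higher and 29.3% lower. These 17 had a median log2 fold change of 0.04 beside -0.01 for all genes tested, and 64.7% of them were called beside 57.6%. VMP1, a reticulum protein of autophagosome formation that sustains SERCA activity in human cells, rose from 168 ± 11.2 to 397 ± 36.9 CPM (SD, n = 3; log2 fold change 1.24, SE 0.12). SRI, the calcium-binding protein sorcin, fell from 52.3 ± 3.86 to 23.6 ± 2.79 CPM, and TRAM2, a translocon protein that binds SERCA2, from 297 ± 23.1 to 145 ± 8.64 CPM. PLN, the SERCA inhibitor phospholamban of heart, had 1 count in all 6 libraries together.

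Calcium-binding proteins of the stores, into which the pumps load calcium, had 2 of 12 tested genes higher, 2 lower and 8 that did not pass, with a median log2 fold change of -0.10. That is 33.3% called, beside 57.6% of all genes tested. HSPA5, the chaperone BiP, rose from 679 ± 78.4 to 1095 ± 167 CPM (SD, n = 3), and SDF4, the Golgi protein Cab45 that sorts secreted cargo, from 165 ± 0.79 to 214 ± 17.7 CPM. The call of SDF4 was lost without normal gravity replicate 1 (adjusted p = 0.0525, edgeR). RCN2 and CALU, a pair of calcium-binding proteins of the secretory pathway, fell from 70.2 ± 8.62 to 38.4 ± 2.69 CPM and from 265 ± 50.9 to 171 ± 18.3 CPM.

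Channels and other proteins that let calcium into the cytosol or into mitochondria had 7 of 20 tested genes higher, 3 lower and 10 that did not pass, with a median log2 fold change of 0.17. Of these 35% were higher and 15% lower, beside 28.2% and 29.3% of all genes tested. Besides TPCN1, MCOLN1, the lysosomal calcium channel, rose from 9.64 ± 1.63 to 27.0 ± 4.91 CPM (SD, n = 3). ITPR2, an IP3 receptor of the reticulum, fell from 55.8 ± 7.64 to 26.1 ± 3.25 CPM. The other IP3 receptor genes were called in the opposite direction. ITPR3 rose from 327 ± 12.0 to 593 ± 55.7 CPM and ITPR1 from 2.58 ± 0.12 to 4.70 ± 0.72 CPM. MCUB, the subunit that dampens mitochondrial calcium uptake, fell from 12.4 ± 2.78 to 6.05 ± 0.87 CPM. Among sodium pump genes, whose product builds the gradient that the exchangers use, 1 of 5 rose and 3 fell, beside 28.2% higher and 29.3% lower among all genes tested. The beta subunit genes ATP1B1 and ATP1B3 fell from 199 ± 13.7 to 121 ± 6.57 CPM and from 297 ± 72.4 to 192 ± 6.53 CPM. FXYD5, a regulatory subunit also known as dysadherin, rose from 132 ± 41.3 to 296 ± 32.0 CPM.

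**Figure D5:**
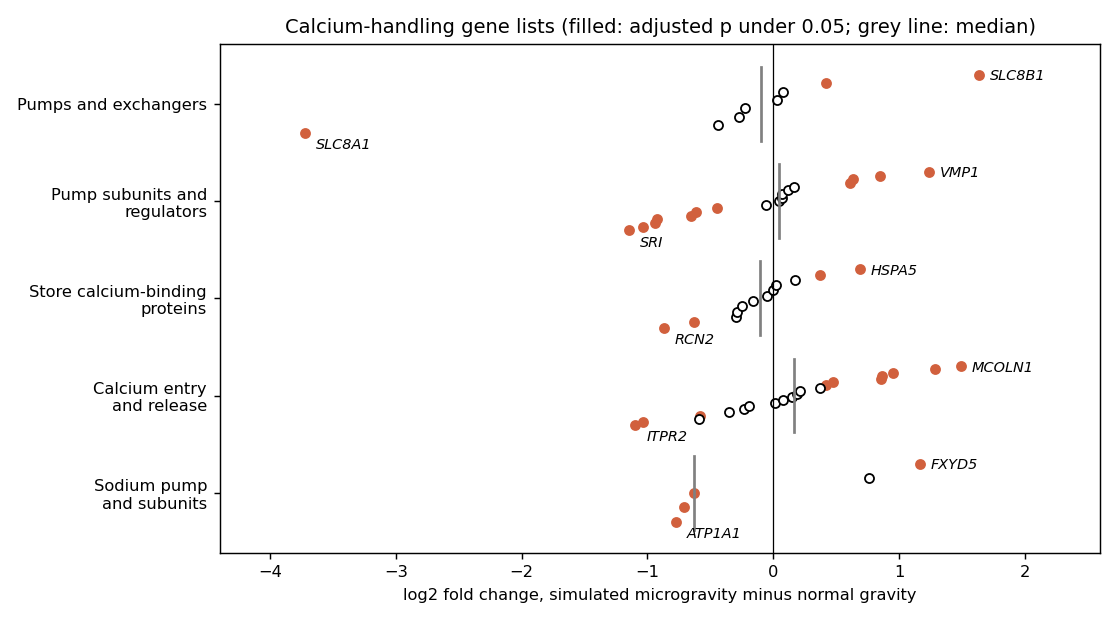
Log2 fold change (x axis, simulated microgravity minus normal gravity) of each tested gene in 5 groups of calcium and sodium handling genes; filled points have an adjusted p under 0.05, grey lines are medians and the outermost genes are named. SLC8A1 at -3.72 and SLC8B1 at 1.63 are the lowest and the highest points of the genes shown.

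Profiles most like those of the exchangers over the 6 libraries were sought by the mean absolute difference of mean-centred log2 CPM. For SLC8B1 the nearest were HSPA1A, an inducible heat shock protein whose reads may be shared with its near-identical copy HSPA1B (difference 0.031), LSR, a protein of tricellular junctions (0.041), and APOL6, an apolipoprotein L (0.047). For SLC8A1 they were HASPIN, a kinase of mitotic histone H3 (0.158), ARHGAP33, a GTPase-activating protein (0.161), and PSRC1, a spindle protein (0.167). With 6 libraries and a large difference between groups, many genes share such a profile.

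Total counts per library were 34264008 to 38861233, and libraries of a group differed by more than sampling noise. Normal gravity replicate 3 stood apart from its group in ATP2B4, SLC8A1 and the proliferation markers, as given above. Squamous epithelial markers were present in all libraries, at a summed 13496 to 22395 CPM in normal gravity and 7756 to 8969 CPM in simulated microgravity. Of 10 such markers 4 rose (40%), 3 fell (30%) and 3 did not pass the test, beside 28.2% higher and 29.3% lower among all genes tested. KRT5, a basal keratin, fell from 9712 ± 2675 to 1011 ± 245 CPM (SD, n = 3), and CDH1, the adhesion protein E-cadherin, rose from 245 ± 40.9 to 589 ± 34.7 CPM. Summed muscle markers were at most 0.33 CPM in any library, endothelial markers 1.597 to 5.84 CPM in normal gravity and 2.35 to 3.57 CPM in simulated microgravity, and fibroblast markers 12.7 to 30.7 and 18.3 to 19.0 CPM. Of 3 endothelial markers tested 1 was called, beside 57.6% of all genes tested. That was CDH5, which rose from 0.053 ± 0.070 to 0.746 ± 0.438 CPM (SD, n = 3; adjusted p = 0.00774, edgeR). Immune markers summed to 110 to 136 and 265 to 287 CPM, nearly all from CD14 and CD68, while PTPRC and CD3E were at most 0.18 CPM in the mean of either group. Of 4 immune markers tested 3 were called higher and none lower, beside 28.2% and 29.3% of all genes tested. They were CD14, CD68 and CD79A, which rose from 0.070 ± 0.099 to 0.739 ± 0.282 CPM (SD, n = 3; adjusted p = 0.0119, edgeR). The part of these in the results was not tested.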

How the data were processed

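Reads of HSC-3 cells were counted in 6 libraries, 3 per group, grouped by their titles. The authors deposited raw counts as whole numbers for each gene in 1 table of the series. Tools named in the submitters' processing notes are DESeq2, HTSeq, fastp, HISAT and R 3.2.0, with build hg38 and no roles. Annotation release and strand setting are not stated in the sources used. Columns are headed NC or SMG with the number of the titles; SMG is named in the treatment protocol, and NC was assigned to normal gravity by inference, as the only other group. Since nothing says how separate the cultures were, p-values reflect library-to-library spread that may be partly technical.

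Genes with low counts were removed by filterByExpr (minimum count 10). The 14736 left were scaled by TMM and tested in edgeR 4.0.16 (R 4.3.3) with the robust quasi-likelihood F-test, adjusted by Benjamini-Hochberg over all of them, and called below 0.05. An SE is the log2 change over the root of its F value. CPM uses TMM-scaled sizes. Reads carry no molecular identifiers, so floors cover counting error only. Lengths are unions of exons in GENCODE release 29 (GRCh38), which overstate the length of genes with many isoforms such as SLC8A1. Coordinates and neighbours are from RefSeq GRCh38.p14. Pair ratios added 0.5 counts. Of 139 entries in 12 gene lists, 129 matched by symbol and 1 by an earlier name, and the other 9 are not analysed here. The members and lists were chosen with earlier results of these data known. Genes named by rule are the members, from each calcium or sodium list the 2 with the smallest adjusted p in each direction among those called, and 3 most similar profiles for each exchanger. A gene that this rule names and a ratio of a pair are not reported here. Overlapping and neighbouring genes, untested relatives, ITPR1, ITPR3 and cell markers were named outside the rule, after their values were seen. On simulated counts over 14480 genes, the test called 60 of 100 genes set to a 2-fold change, 92 of 100 set to 4-fold, and 8 unchanged genes. Only the set genes were changed there, drawn from genes above a minimum mean count, while 57.6% of genes were called in the data. These rates therefore need not hold for the data. Alternatives were other scalings, filters, DESeq2 1.42.0, limma-voom (limma 3.58.1), a replicate block and leaving out each library.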

Additional observations from a re-analysis of the deposited data

How the results depend on the processing

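Over 13 alternatives 6938 to 9555 genes and 2 to 4 members were called, and SLC8A1 and SLC8B1 kept their direction and call in all of them. The number of members higher was 1 to 3 with single libraries left out, and the number lower was 2 with the DESeq2 Wald test and with limma-voom, where ATP2A2 passed at -0.248 and -0.271. With single libraries left out, log2 fold changes ran from 0.276 to 0.487 for ATP2B1, from -0.13 to 0.402 for ATP2B4 and from -0.181 to 0.373 for ATP2A3, whose sign turned on leaving out normal gravity replicate 2 (-0.156) or either of simulated microgravity replicates 1 (-0.0239) and 2 (-0.181). For ATP2B4 it turned without normal gravity replicate 1 (-0.127) or replicate 2 (-0.13) and simulated microgravity replicate 1 (-0.06). The ratio ATP2B1/ATP2B4 turned without normal gravity replicate 3 (-0.123), with a range of -0.123 to 0.57. The cause was not tested. ATP2A3 was removed by the filter of CPM above 1 in 3 libraries. The alternatives were also read for 30 other named genes, not for every tested gene named here. Of these, 26 kept their direction and their side of the threshold in all alternatives, and 3 (SLC24A1, SDF4 and NEK11) lost a call in some. ASTE1, not called, turned sign without normal gravity replicate 3 (range with single libraries left out -0.0178 to 0.271).

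Libraries of the same replicate number did not deviate together (correlations over genes of 0.0494, -0.0437 and -0.0169) more than those of different numbers (-0.0692 to 0.0772). With 3 libraries per group such correlations cannot exclude a pairing or a shared batch. With a replicate block 7860 genes and 3 members were called. ATP2A3 and ATP2C2 had at most 86 counts in a library, and counting error (SE 0.26 and 0.16) was smaller than their fitted SEs (0.51 and 0.46).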

Other observations

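Within 50 kb of the 8 genes, RefSeq GRCh38.p14 places 15 other genes of the count table, of which 12 were tested, 4 rose and 3 fell. That is 58.3% called, near the 57.6% of all genes tested. These were chosen after their values were seen. Next to ATP2A3, whose own level was near 0, CAMKK1, a kinase that answers to calcium and calmodulin, fell from 17.6 ± 3.78 to 4.37 ± 1.40 CPM (SD, n = 3), and ZZEF1, a zinc finger and EF-hand protein, rose from 74.5 ± 8.55 to 141 ± 8.90 CPM. NEK11, a kinase gene beside ATP2C1, was at 2.35 ± 1.006 and 4.57 ± 0.42 CPM (adjusted p = 0.0333, edgeR), a call lost on leaving out any library other than normal gravity replicate 3 (adjusted p 0.0665 to 0.117, edgeR). ANAPC7, the neighbour of ATP2A2 and a subunit of the anaphase-promoting complex, was at 51.7 ± 12.9 and 60.4 ± 3.96 CPM and did not pass the test (adjusted p = 0.317, edgeR).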
